A study of Rattus norvegicus with 8 samples.

Results

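The cell's main defence against oxidants and reactive chemicals is switched on by the transcription factor NRF2, and 8 of its genes are described here across rat kidney allografts. They are Nfe2l2, which encodes NRF2 itself, Keap1, which encodes the protein that holds NRF2 back, and the target genes Nqo1, Srxn1, Txnrd1, Hmox1, Gclc and Gclm. They were matched on the array by the gene name of a probe or by its RefSeq accession, which gave 12 probes of 41012, and all 8 genes were among the 24461 genes tested. The set was chosen by measured values, namely the differences of Srxn1 and Nqo1 between high- and low-difference grafts, so all values of that comparison are given as a description, without a test.

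Kidneys of Dark Agouti (DA; RT1a) rats were transplanted into MHC-incompatible Lewis (LEW; RT1l) males whose own kidneys had both been removed, after 25 min of storage at 4 °C, and all grafts were collected 24 h later. The rats were inbred and weighed 120 to 250 g, and no age is given. In grafts treated with anti-IL6R, the recipient received 500 µg of a neutralising antibody against the interleukin-6 receptor into a vein at the end of the operation. In prednisolone grafts the recipient received 15 mg/kg of that glucocorticoid in the same way. Both treated groups had a high weight difference, as did the untreated high-difference group, whose donors were 20 to 50% lighter than their recipients. In the untreated low-difference group donors were 0 to 20% lighter. Each group had 2 biological replicates, each on 1 array, and every graft was an allograft, so no group shows the level of an untransplanted kidney.

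Under resting conditions KEAP1, an adaptor of a ubiquitin ligase, marks NRF2 for destruction. Oxidants and electrophiles modify cysteines of KEAP1, NRF2 then escapes, pairs with a small MAF protein and binds antioxidant response elements (AREs) near its target genes. Control is thus largely at the level of the protein, and the targets are the usual readout of the pathway. In the kidney the proximal tubule, which has a high oxygen demand, is a main site of ischemic injury, and NRF2 activity has been linked to protection from it in rodents.

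The promoter windows of the target genes are shown because the ARE core is short enough to be looked for directly. RefSeq windows on GRCr8, of 250 bases before to 50 after an annotated start, were given for 7 of the 8 genes and not for Hmox1. Both strands were searched for the ARE core, TGACNNNGC or TGAGNNNGC, which occurs by itself in 27.1% of all 33469 such windows. It was found for 4 of the 7 genes, namely Srxn1, Gclm, Txnrd1 and Nfe2l2. That count is by gene, whereas the 27.1% is by window. The 7 genes had 8 windows, as Txnrd1 had 2, of which 1 held a match. Of 73 windows of the other NRF2 pathway genes described below, 41.1% held a match. The windows of Srxn1, of the Txnrd1 start that held a match, of Gclm and of Nqo1, which held none, are printed 5′ to 3′ in the direction of the gene. Capitals mark a match, which reads as its reverse complement where it lies on the opposite strand.
Srxn1: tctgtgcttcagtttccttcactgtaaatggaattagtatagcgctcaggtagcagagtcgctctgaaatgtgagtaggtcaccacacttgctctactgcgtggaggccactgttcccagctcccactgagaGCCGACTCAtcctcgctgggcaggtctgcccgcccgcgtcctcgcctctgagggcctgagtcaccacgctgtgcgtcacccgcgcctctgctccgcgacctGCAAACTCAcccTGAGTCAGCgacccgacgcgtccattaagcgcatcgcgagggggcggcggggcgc
Txnrd1: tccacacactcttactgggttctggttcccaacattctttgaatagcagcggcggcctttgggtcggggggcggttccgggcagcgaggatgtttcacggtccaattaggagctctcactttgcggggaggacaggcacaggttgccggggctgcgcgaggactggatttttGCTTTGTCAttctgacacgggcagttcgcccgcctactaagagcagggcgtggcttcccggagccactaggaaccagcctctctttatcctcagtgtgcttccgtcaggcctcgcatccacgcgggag
Gclm: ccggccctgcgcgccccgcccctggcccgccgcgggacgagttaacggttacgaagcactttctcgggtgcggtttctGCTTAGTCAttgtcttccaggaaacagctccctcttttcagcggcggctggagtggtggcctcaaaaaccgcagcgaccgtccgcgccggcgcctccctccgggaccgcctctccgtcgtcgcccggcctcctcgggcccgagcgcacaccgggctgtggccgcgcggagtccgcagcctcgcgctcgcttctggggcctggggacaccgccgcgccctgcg
Nqo1: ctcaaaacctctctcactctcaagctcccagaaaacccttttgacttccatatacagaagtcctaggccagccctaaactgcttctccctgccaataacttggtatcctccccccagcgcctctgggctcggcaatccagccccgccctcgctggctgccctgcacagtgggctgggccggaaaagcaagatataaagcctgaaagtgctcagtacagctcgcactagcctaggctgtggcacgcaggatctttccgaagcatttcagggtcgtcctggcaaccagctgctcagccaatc

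The Srxn1 window lies on the plus strand at chr3:161064562-161064861 and held 3 matches. The first, TGAGTCGGC on the opposite strand, spans bases -118 to -110 from the start, the second, TGAGTTTGC on the opposite strand, bases -17 to -9, and the third, TGAGTCAGC, bases -5 to 4. The third overlaps an AP-1 motif (TGACTCA or TGAGTCA), of which the window held 2, against at least 1 in 4.63% of all windows. The Txnrd1 window is on the minus strand at chr7:22755855-22756154, at 1 of 2 annotated starts, with TGACAAAGC on the opposite strand at bases -78 to -70. The Gclm window is on the plus strand at chr2:213031885-213032184, with TGACTAAGC on the opposite strand at bases -172 to -164. The Nqo1 window is on the minus strand at chr19:52220218-52220517. In Nfe2l2 the match TGACGCCGC lay after the start, at bases 39 to 47. A match describes letters in the window and does not show that NRF2 binds there, and a window without one says nothing about sites further away.

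Values below are log2 levels, in which 0 is the 75th percentile of the array, so a negative level lies below it. A log2 difference of 1 is a doubling of the signal, and no probe is compared in level with another. Between 64.5 and 74.0% of the gene spots of an array rose well above background. Arrays of a group correlated across genes at r = 0.992 for anti-IL6R, 0.957 for prednisolone, 0.981 for high and 0.987 for low difference, so the prednisolone pair was the least alike. Both treated groups were on 1 slide and both untreated groups on another, and treatment and slide therefore cannot be told apart in treated against untreated grafts. Of the markers of the labelled tissue, all 10 of the proximal tubule and all 8 of the distal nephron were well above background on all 8 arrays. Of 4 adrenal and 3 skeletal muscle markers, between 1 and 3 were well above background on an array, and of 5 fat markers between 3 and 4. Because whole tissue was measured, fewer cells of a type and less RNA per cell cannot be told apart.

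The genes of the switch itself varied little. Nfe2l2 had log2 levels of 4.20 and 4.25 in anti-IL6R grafts, 4.23 and 4.56 in prednisolone grafts, 4.20 and 4.25 in high-difference grafts and 4.42 and 4.43 in low-difference grafts. All 8 levels lay between 4.20 and 4.56, and high-difference grafts lay below low-difference grafts, by a mean of -0.20. Keap1 had 0.88 and 1.15 in anti-IL6R grafts, 0.69 and 1.01 in prednisolone grafts, 1.04 and 0.83 in high-difference grafts and 1.14 in both low-difference grafts. The treated groups overlapped the high-difference group for both genes. By limma, the anti-IL6R minus high difference of Nfe2l2 was -0.00078 (95% interval -0.45 to 0.45, adjusted p = 0.998) and that of Keap1 0.08 (-0.42 to 0.58, adjusted p = 0.858). By limma across all genes, prednisolone minus high gave 0.17 for Nfe2l2 (-0.28 to 0.61, adjusted p = 0.718) and -0.09 for Keap1 (-0.59 to 0.41, adjusted p = 0.874).

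Nqo1, which encodes an enzyme that reduces quinones by a pair of electrons and so keeps them from cycling with oxygen, was the member with the largest difference between untreated groups. Its log2 levels were -2.16 and -1.58 in anti-IL6R grafts, -2.20 and -1.99 in prednisolone grafts, -0.08 and -0.42 in high-difference grafts and -3.03 and -2.11 in low-difference grafts. Both high-difference arrays lay above the other 6, among which every pair of groups overlapped. The high-difference mean was -0.25 ± 0.24 and the low-difference mean -2.57 ± 0.64 (SD, n = 2 each), a log2 difference of 2.32 or 4.99-fold. The anti-IL6R mean was -1.87 ± 0.41 and the prednisolone mean -2.10 ± 0.15 (SD, n = 2 each).

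Srxn1 encodes sulfiredoxin, which repairs peroxiredoxins that have been over-oxidised by peroxide. Its levels were -3.51 and -3.16 in anti-IL6R grafts, -3.22 and -3.28 in prednisolone grafts, -2.05 and -1.67 in high-difference grafts and -4.05 and -3.44 in low-difference grafts. As for Nqo1, both high-difference arrays stood above the 6 others. Prednisolone arrays also lay above low-difference arrays, while anti-IL6R arrays overlapped both of those groups. The high-difference mean was -1.86 ± 0.27 and the low-difference mean -3.74 ± 0.43 (SD, n = 2 each), a difference of 1.88 or 3.69-fold. A second Srxn1 probe was well above background on 1 of the 8 arrays, in the low-difference group, and gives no usable level.

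Txnrd1 encodes the cytosolic thioredoxin reductase, a selenoprotein that passes electrons from NADPH to thioredoxin. The tested probe had 2.88 and 2.81 in anti-IL6R grafts, 3.60 and 2.64 in prednisolone grafts, 3.86 and 4.08 in high-difference grafts and 2.81 and 2.83 in low-difference grafts. The high-difference mean of 3.97 ± 0.16 exceeded the low-difference mean of 2.82 ± 0.01 (SD, n = 2 each) by 1.15 or 2.22-fold. Txnrd1 had 3 further probes, all well above background on all 8 arrays, and each put both high-difference arrays above the 6 others, with high minus low differences of 1.11, 0.88 and 1.35. The probes differed in how far the first prednisolone array stood from the second. It had 3.60 against 2.64 on the tested probe, 2.11 against 1.82 and -0.67 against -0.78 on another 2, and -3.80 against -3.27 on the last, where it was the lowest of the 8.

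**Figure D1:**
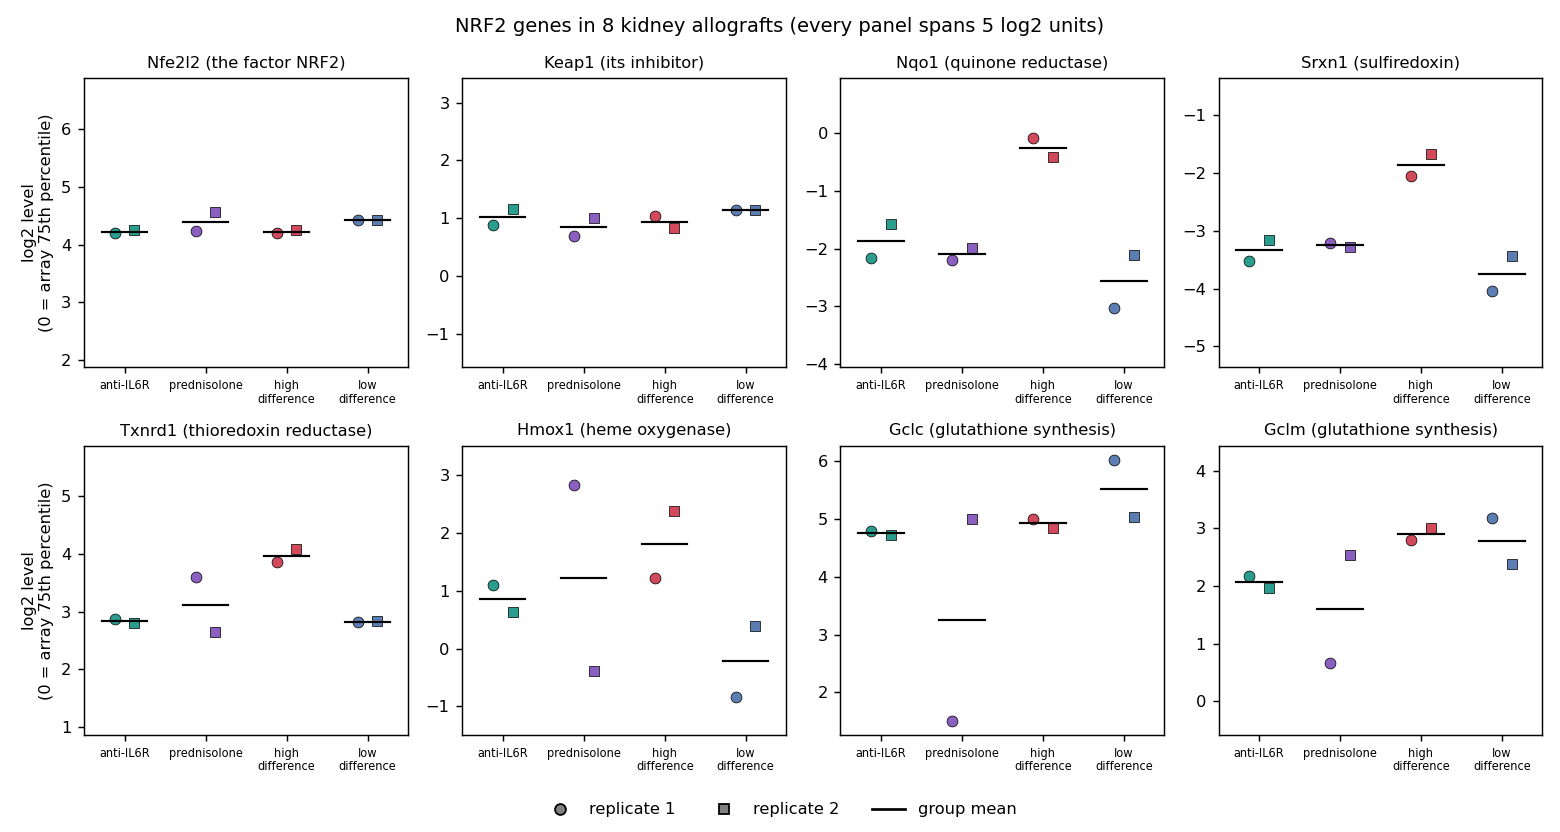
Log2 levels of the 8 NRF2 genes on each array (y axis, 0 is the array's 75th percentile, every panel spans 5 log2 units) by group (x axis). Circles are replicate 1, squares replicate 2 and bars group means; Nqo1, Srxn1 and Txnrd1 are highest on both high-difference arrays, whereas Gclc, Gclm and Hmox1 separate the prednisolone arrays.

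**Figure D2:**
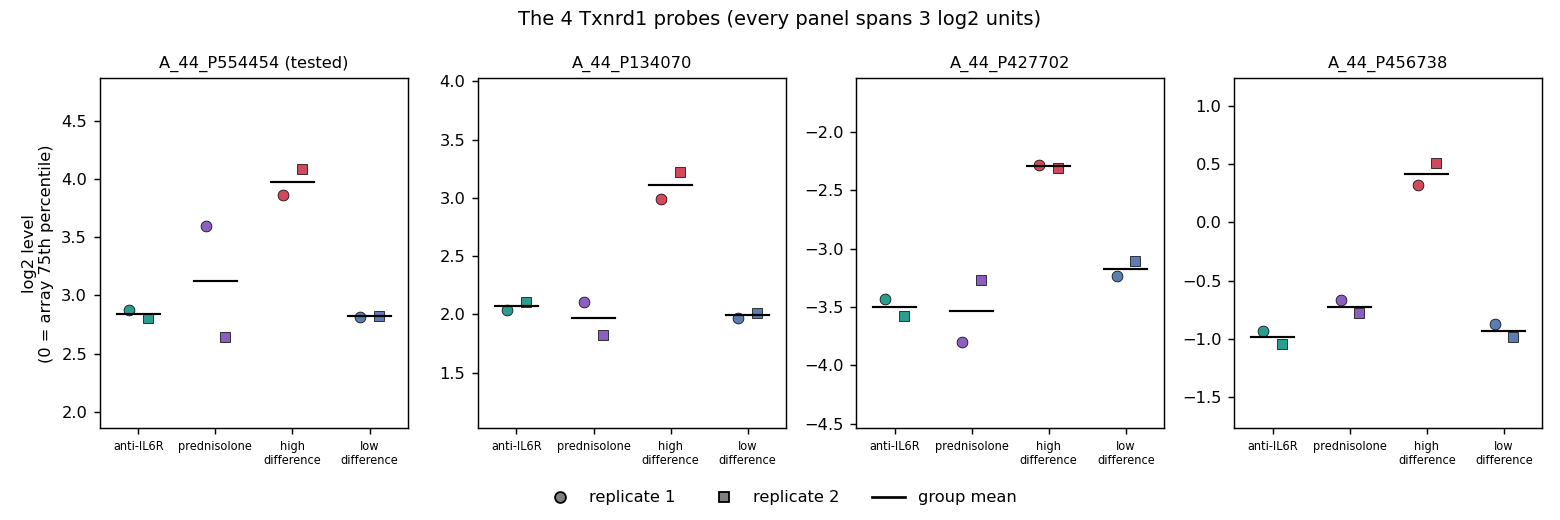
Log2 levels of the 4 Txnrd1 probes (y axis, 0 is the array's 75th percentile, every panel spans 3 log2 units) by group, with circles for replicate 1, squares for replicate 2 and bars for group means. The high-difference arrays are the highest on every probe, and the first prednisolone array is at 3.60 against 2.64 for the second on the tested probe, a wider gap than on the remaining 3.

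Hmox1 encodes heme oxygenase-1, which breaks down heme and answers to heme and hypoxia as well as to NRF2. Its levels, each averaged over 10 spots, were 1.09 and 0.64 in anti-IL6R grafts, 2.84 and -0.39 in prednisolone grafts, 1.23 and 2.39 in high-difference grafts and -0.83 and 0.39 in low-difference grafts. The high-difference mean of 1.81 ± 0.82 and the low-difference mean of -0.22 ± 0.86 (SD, n = 2 each) differed by 2.02 or 4.07-fold, with no overlap. The prednisolone arrays held the highest of the 8 levels and the second lowest, 3.23 log2 units apart.

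The subunits of glutamate-cysteine ligase, the rate-limiting enzyme of glutathione synthesis, did not follow Nqo1. The catalytic subunit gene Gclc had 4.80 and 4.72 in anti-IL6R grafts, 1.50 and 5.0 in prednisolone grafts, 5.01 and 4.85 in high-difference grafts and 6.03 and 5.03 in low-difference grafts. High-difference arrays were thus below low-difference arrays, by a mean of -0.60, although their nearest arrays, at 5.01 and 5.03, almost met. The modifier subunit gene Gclm had 2.17 and 1.97 in anti-IL6R grafts, 0.66 and 2.54 in prednisolone grafts, 2.79 and 3.01 in high-difference grafts and 3.18 and 2.38 in low-difference grafts. The untreated groups overlapped for Gclm, with a mean difference of 0.12 for high minus low. Both genes were lowest on the first prednisolone array, by 3.51 log2 units against the second for Gclc and by 1.88 for Gclm.

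Over the set, 4 of the 8 members were higher without overlap in high-difference than in low-difference grafts and 3 were lower. Among all genes tested these shares were 33.5% and 23%, and since the set was chosen from this comparison nothing is read from the count. limma called 0% of the 24461 genes in high minus low at an adjusted p under 0.05, with 3588 (14.7%) at an unadjusted p under 0.05. The 3 members that were lower, Gclc, Nfe2l2 and Keap1, had differences of -0.60, -0.20 and -0.20. Marker genes of other cells and of injury differed between the same grafts. All 8 distal nephron markers were lower in high-difference grafts without overlap, with a median difference of -1.52. So were 8 of 10 macrophage and monocyte markers (median -1.45) and 6 of 7 endothelial markers (median -0.87). The 8 T cell markers also lay lower without overlap (median -1.59). However, only 2 and 3 of them were well above background on the high-difference arrays, against 6 on each low-difference array. Cd3e and Cd4 were so on 0 arrays of either group, and nothing is read from their separation. Of 9 tubular injury markers 8 were higher, 5 without overlap, with a median of 1.05. Proximal tubule markers were lower for 8 of 10, 3 of them without overlap, with a median of -0.59. Their part in the levels of the NRF2 genes was not tested.

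Anti-IL6R grafts were set against high-difference grafts without treatment to ask what the antibody altered. The target genes stood lower in treated grafts, but no member passed the test. Nqo1 differed by -1.62 ± 0.36 (SE, 95% interval -2.48 to -0.75, limma adjusted p = 0.198), with levels of -2.16 and -1.58 in anti-IL6R grafts and of -0.08 and -0.42 in high-difference grafts. Srxn1 differed by -1.48 ± 0.27 (SE, interval -2.14 to -0.81, limma adjusted p = 0.176) and Txnrd1 by -1.13 ± 0.32 (SE, interval -1.90 to -0.36, limma adjusted p = 0.219). For these 3 genes the groups did not overlap. The other 3 Txnrd1 probes gave -1.04, -1.21 and -1.40.

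Gclm differed by -0.83 ± 0.60, Hmox1 by -0.94 ± 1.04 and Gclc by -0.17 ± 1.03 in anti-IL6R minus high (SE). Their limma adjusted p were 0.484, 0.646 and 0.944, and their arrays did not overlap either. These SEs pool the spread of all 4 groups, and prednisolone, which is not compared here, had the widest. For Gclc the SD was 0.06 in anti-IL6R, 0.11 in high-difference and 2.48 in prednisolone grafts. For Hmox1 it was 0.32, 0.82 and 2.28 in the same order. Without the first or the second high-difference array Hmox1 differed by -1.52 or -0.36 and Gclc by -0.087 or -0.25, and Gclc by -0.0086 under quantile normalization. In all, 6 of 8 members were lower without overlap and 0 higher, where 36.3% and 23.4% of all genes were. limma called 0% of all genes in this comparison, with 4332 (17.7%) at an unadjusted p under 0.05, among them 3 members, Nqo1, Srxn1 and Txnrd1. The comparison shares its high-difference arrays with the one from which the set was chosen, so the lower levels of Nqo1 and Srxn1 in treated grafts are not independent of that choice. Summed markers of other cells also differed in this comparison. The summed linear level of the 11 macrophage and monocyte markers measured was 54.6 and 37.7 in anti-IL6R grafts and 15.3 and 11.3 in high-difference grafts, with 9 to 11 well above background. Proximal tubule markers were higher for 8 of 10, 6 without overlap, with a median difference of 1.40, although their sum, carried by the brightest probes, was 722 and 739 in anti-IL6R grafts and 849 and 459 in high-difference grafts. All 8 distal nephron markers were higher, 4 without overlap (median 1.07), and all 7 endothelial markers, 5 without overlap (median 1.07). Summed T cell markers, 8 in all, stood at 1.52 and 1.29 in anti-IL6R grafts and 0.36 and 0.395 in high-difference grafts. All 8 were well above background on both anti-IL6R arrays, but only 2 and 3 on the high-difference arrays. The 9 tubular injury markers summed to 630 and 773 in anti-IL6R grafts and 953 and 1708 in high-difference grafts. Their part in the levels of the NRF2 genes was not tested.

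Prednisolone grafts were set against the same untreated grafts to ask what the steroid altered, and again no member passed. Nqo1 differed by -1.84 ± 0.36 (SE, interval -2.71 to -0.98, limma adjusted p = 0.312) and Srxn1 by -1.39 ± 0.27 (SE, interval -2.05 to -0.73, limma adjusted p = 0.312), with all 4 arrays of the groups apart for both genes. The 2 prednisolone arrays lay within 0.22 of each other for Nqo1 and within 0.06 for Srxn1, although they lay far apart for Hmox1, Gclc and Gclm. Txnrd1 differed by -0.85 ± 0.32 (SE, limma adjusted p = 0.397). Its tested probe gave -1.33 without the first prednisolone array and -0.37 without the second, whereas the other 3 probes gave -1.14, -1.24 and -1.14 over both arrays.

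For the 3 members on which the prednisolone arrays disagreed, the mean depended on which array was kept. Gclc differed from high-difference grafts by -1.68 ± 1.03 (SE, limma adjusted p = 0.533), by 0.08 without the first prednisolone array and by -3.43 without the second. Gclm differed by -1.30 ± 0.60 (SE, limma adjusted p = 0.453), by -0.36 without the first and by -2.24 without the second. Hmox1 differed by -0.58 ± 1.04 (SE, limma adjusted p = 0.831), by -2.20 without the first and by 1.03 without the second. The same 2 arrays differed in markers of other cells. The summed macrophage and monocyte markers stood at 83.4 on the first and 20.2 on the second prednisolone array. The 6 neutrophil markers stood at 2.07 and 0.21, with only 4 and 3 of them well above background. Proximal tubule markers summed to 605 and 676, but single ones lay far apart in both directions, with Slc5a2 at 7.22 on the first and 2.46 on the second and Aqp1 at 4.20 and 7.06. Distal nephron markers summed to 232 on the first and 639 on the second, and were thus lower on the array on which Gclc and Gclm were low. Whether these differences bear on Gclc, Gclm and Hmox1 was not tested. In all, 4 of 8 members were lower without overlap and 0 higher, against 25% and 13.9% of all genes. limma called 0% of all genes, with 2892 (11.8%) at an unadjusted p under 0.05, among them 3 members, Nqo1, Srxn1 and Txnrd1. Prednisolone minus high also shares its high-difference arrays with the comparison from which the set was chosen. The lower levels of Nqo1 and Srxn1 in prednisolone grafts are therefore not independent of that choice. Leaving out the first or the second prednisolone array gave 224 or 21 called genes in prednisolone minus high, with no member among them, and with a lone prednisolone array assumed to vary like the other groups.

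**Figure D3:**
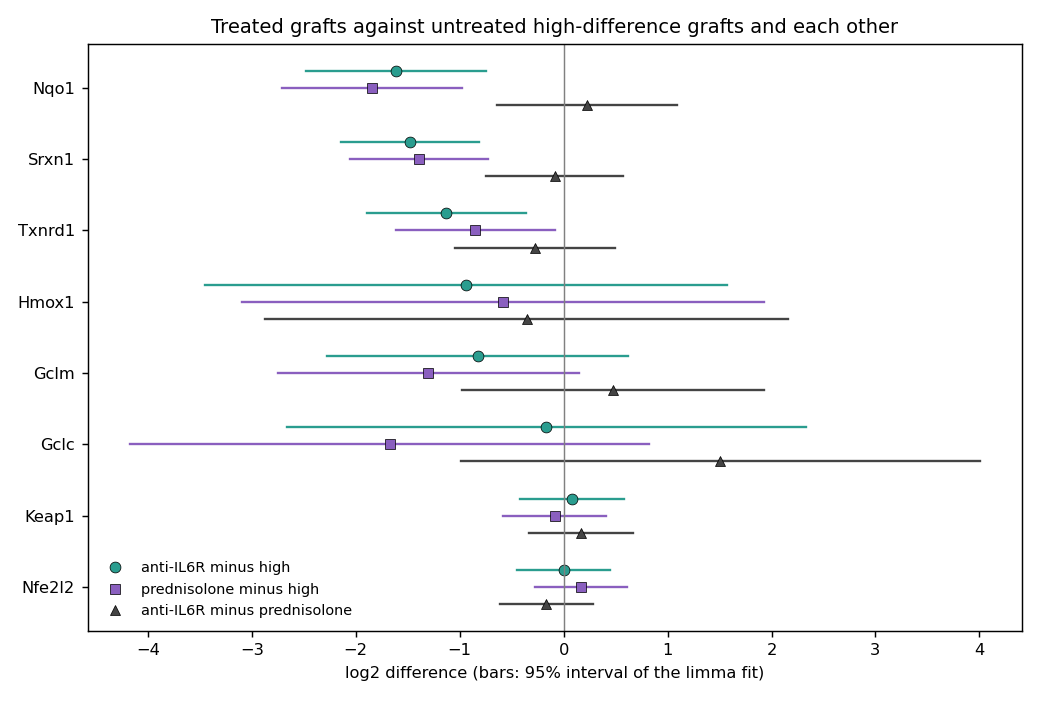
Log2 differences (x axis) of the 8 NRF2 genes (y axis) with 95% intervals of the limma fit of all 8 arrays, for anti-IL6R minus high (circles), prednisolone minus high (squares) and anti-IL6R minus prednisolone (triangles). The intervals of Nqo1, Srxn1 and Txnrd1 lie below 0 for both treatments against untreated grafts, without passing after adjustment over all genes, and include 0 between the treatments. Both comparisons with untreated grafts share the high-difference arrays by which the set was chosen.

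The differences between the treatments rest on arrays of 1 slide, none of which was behind the choice of the set. Their intervals and p-values still use the spread of all 8 arrays. No member passed (limma adjusted p above 0.99 for each of the 8) and none was free of overlap in either direction, where 11.9% of all genes were higher and 14.3% lower without overlap. For anti-IL6R minus prednisolone, Nqo1 differed by 0.23 (95% interval -0.64 to 1.09), Srxn1 by -0.09 (-0.75 to 0.58) and Txnrd1 by -0.28 (-1.05 to 0.49). For Gclc the interval was as wide as -0.99 to 4.00 around 1.51, and its prednisolone arrays lay at 1.50 and 5.0. limma called 0% of all genes, with 831 (3.4%) at an unadjusted p under 0.05, and 0 members among them.

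Set against low-difference grafts, the treated grafts had mean Nqo1 levels that differed by 0.70 for anti-IL6R (95% interval -0.16 to 1.57) and 0.47 for prednisolone (-0.39 to 1.34), and mean Srxn1 levels by 0.41 (-0.26 to 1.07) and 0.50 (-0.17 to 1.16). Without the first or the second low-difference array, the Nqo1 difference was 0.25 or 1.16 for anti-IL6R and 0.019 or 0.93 for prednisolone. Leaving out 1 array at a time gave 0.10 to 0.71 and 0.19 to 0.80 for Srxn1. Low-difference arrays were also among those by which the set was chosen. Txnrd1 differed by 0.02 (-0.75 to 0.79) and 0.30 (-0.47 to 1.07). No member passed in either comparison (limma adjusted p = 0.999 for each in anti-IL6R minus low, and at least 0.826 in prednisolone minus low), and 0% of all genes were called, with 753 (3.08%) and 1471 (6.01%) at an unadjusted p under 0.05 and 0 members among either. Gclc was at 4.80 and 4.72 in anti-IL6R grafts and 1.50 and 5.0 in prednisolone grafts, all below the 6.03 and 5.03 of low-difference grafts. Without overlap 1 member was higher and 3 were lower in anti-IL6R minus low (15.4% and 23.9% of all genes), and 1 higher and 2 lower in prednisolone minus low (14.8% and 16.8%). Hmox1 was the member higher without overlap in anti-IL6R grafts, and Srxn1 in prednisolone grafts.

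The wider pathway was followed in 78 further genes, of which 72 were tested. The cystine transporter gene Slc7a11 was well above background on 0 arrays, Bach2 and Nfe2l3 were too dim to be tested, and Gsta5, Pgd and Slc48a1 were not matched to a probe. None of the 72 passed in any of the 5 comparisons that were tested. These genes were listed with earlier results of these data known. Both comparisons of treated with high-difference grafts also share arrays by which the members were chosen. Nothing is therefore read from how the shares of these genes, or of a part of them, stand beside those of all genes. For anti-IL6R minus high, 37 were lower and 9 higher without overlap, or 51.4% and 12.5%, beside the 36.3% and 23.4% of all genes given above, and 20 lower and 1 higher reached an unadjusted p under 0.05 in limma, as did 17.7% of all genes in either direction. Their median difference was -0.30, against -0.09 over all genes, but -0.05 under quantile normalization. For prednisolone minus high, 29 were lower and 4 higher without overlap, or 40.3% and 5.56% beside 25% and 13.9% of all genes, and 15 lower and 1 higher reached an unadjusted p under 0.05, beside 11.8% of all genes. The median was -0.21 against -0.08 over all genes, but -0.08 under quantile normalization and -0.39 without the second prednisolone array. Medians over all genes given here are of the main fit. They were not taken under quantile normalization or without an array, so the list medians of those alternatives have no background beside them. In high-difference against low-difference grafts, 46 were higher and 26 lower, where 56.0% of all genes were higher, with a median of 0.24 against 0.07 over all genes, and of 0.14 without the second high-difference array.

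NADPH is the reductant on which NQO1 and thioredoxin reductase both draw. Genes of its supply, taken with those of the pentose phosphate pathway, stood at lower levels in both treated groups than in high-difference grafts. All 5 measured had lower means there, and 4 of the 5 lay without overlap in each comparison, where 36.3% (anti-IL6R) and 25% (prednisolone) of all genes were lower in that way, and none passed the test. Tkt, the transketolase of the pentose phosphate pathway, had 8.05 and 8.07 in anti-IL6R grafts, 8.33 and 8.11 in prednisolone grafts, 8.75 and 8.65 in high-difference grafts and 8.08 and 8.19 in low-difference grafts. Its differences were -0.64 ± 0.18 for anti-IL6R and -0.48 ± 0.18 for prednisolone minus high (SE, limma adjusted p = 0.215 and 0.389), and -0.12 and -0.084 under quantile normalization. Me1, the cytosolic malic enzyme, differed by -0.76 ± 0.22 and -0.48 ± 0.22 in these comparisons (SE, limma adjusted p = 0.221 and 0.457), the prednisolone difference being -0.22 without the first prednisolone array.

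Of the thioredoxin and peroxiredoxin genes, 5 of 6 had higher means in high-difference than in low-difference grafts, 4 of them without overlap. Of all genes 56.0% were higher and 33.5% higher without overlap, and nothing is read from a count in this comparison. Prdx6 had 3.22 and 3.20 in anti-IL6R grafts, 3.95 and 3.33 in prednisolone grafts, 4.01 and 4.00 in high-difference grafts and 3.42 and 3.37 in low-difference grafts. Txnrd3, a relative of Txnrd1, differed by 1.35 between high- and low-difference grafts, and Txn1, the thioredoxin that TXNRD1 reduces, by 0.41. In anti-IL6R minus high these 3 genes differed by -0.79 ± 0.24, -1.22 ± 0.32 and -0.32 ± 0.19 (SE, limma adjusted p = 0.223, 0.211 and 0.409), and Txn1 by -0.018 under quantile normalization.

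Among genes for conjugation, export and drug metabolism, the aldo-keto reductase gene Akr1b8 and the conjugate export pump gene Abcc2 had wide ranges. Akr1b8 had -0.02 and 0.88 in anti-IL6R grafts, 2.27 and -0.71 in prednisolone grafts, 2.63 and 3.28 in high-difference grafts and -1.61 and 0.07 in low-difference grafts. Abcc2 had 1.99 and 2.75 in anti-IL6R grafts, 4.15 and 1.25 in prednisolone grafts, 4.33 and 4.97 in high-difference grafts and 1.95 and 2.35 in low-difference grafts. Both were thus highest in high-difference grafts and, as with Hmox1, high on the first and low on the second prednisolone array. Of 13 quinone, aldehyde and drug metabolism genes, 9 had higher and 4 lower means in high- than in low-difference grafts. Of all genes 56.0% were higher, and nothing is read from this count. The 4 lower ones were Aox1, Nqo2, Osgin1 and Cbr3, by -1.31, -1.25, -1.21 and -0.24, and all but Cbr3 were so without overlap. Without the first prednisolone array Abcc2 was called by limma in prednisolone minus high, at -3.40 (adjusted p = 0.0407), where the 1 prednisolone array left was assumed to vary like the other groups, and over both arrays it was not, at -1.95 ± 0.88 (SE, adjusted p = 0.448).

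The glutathione transferases differed in both directions. Gstp1 had 7.52 and 7.67 in anti-IL6R grafts, 7.42 and 7.78 in prednisolone grafts, 8.44 and 8.50 in high-difference grafts and 7.13 and 7.73 in low-difference grafts, highest on both high-difference arrays as for Nqo1. Of the 12 measured, 6 had higher and 6 lower means in high-difference than in low-difference grafts, and all 4 measured members of the alpha class were among the lower ones. Gsta2 and Gsta3 differed by -1.01 and -1.18 and were lowest on the first prednisolone array, at 6.41 and 3.62, as was Gclc. Close copies within the alpha and mu classes may share probes, so their levels are uncertain.

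Genes of glutathione breakdown differed among themselves. Chac1, which cleaves glutathione and is mainly known as a target of the stress factor ATF4, had -2.69 and -2.79 in anti-IL6R grafts, -1.70 and -2.87 in prednisolone grafts, -0.04 and 0.64 in high-difference grafts and -3.24 and -2.94 in low-difference grafts. It was not called over all arrays, at -3.04 ± 0.42 for anti-IL6R minus high (SE, limma adjusted p = 0.145). It was called there only when a prednisolone array, which is not compared, was left out. That leaves the difference as it was and alters only the pooled spread, and further genes were then called as well. The dipeptidase gene Dpep1 ran the other way, with 0.95 and -0.23 in anti-IL6R grafts, -3.08 and -2.62 in prednisolone grafts, -1.99 and -3.40 in high-difference grafts and -0.10 and 0.87 in low-difference grafts. Its prednisolone arrays overlapped the high-difference arrays and lay below both other groups. Ggt1, a brush-border enzyme of the proximal tubule that starts the breakdown of glutathione outside the cell, had its lowest level on the first prednisolone array, 6.22, against 7.37 to 8.14 on the others.

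The 3 regulators given here had their highest levels in high-difference grafts. Bach1, a repressor that competes with NRF2 for AREs, had -3.62 and -3.49 in anti-IL6R grafts, -3.05 and -3.73 in prednisolone grafts, -2.95 and -2.34 in high-difference grafts and -3.67 and -3.53 in low-difference grafts. Sqstm1, whose product p62 can bind KEAP1 and free NRF2, had 3.29 and 2.96 in anti-IL6R grafts, 3.78 and 3.41 in prednisolone grafts, 4.04 and 4.36 in high-difference grafts and 3.82 and 3.51 in low-difference grafts. Maff, a small MAF partner, was lowest in the treated groups, with -4.61 and -4.75 in anti-IL6R grafts and -4.68 and -4.93 in prednisolone grafts, against -3.29 and -2.75 in high-difference and -4.08 and -3.62 in low-difference grafts. Its differences from high-difference grafts were -1.66 ± 0.27 for anti-IL6R and -1.78 ± 0.27 for prednisolone (SE, limma adjusted p = 0.154 and 0.271).

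Among heme and iron genes, the ferritin genes Fth1 and Ftl1, both iron stores under NRF2 control, differed by -0.58 ± 0.16 and -0.53 ± 0.21 in anti-IL6R minus high (SE, limma adjusted p = 0.217 and 0.264) and by 0.26 and 0.20 in high minus low. Under quantile normalization these came to -0.036 and 0.042 in anti-IL6R minus high and 0.055 and -0.061 in high minus low, so that the Ftl1 differences turned. Cat, the peroxisomal catalase, had 2.79 and 2.17 in anti-IL6R grafts, 0.54 and 3.45 in prednisolone grafts, 1.70 and 1.11 in high-difference grafts and 3.52 and 2.32 in low-difference grafts. It was lower in high- than in low-difference grafts, and lowest on the first prednisolone array. Osgin1 was lowest on the first prednisolone array, at -0.99, and highest on the first low-difference array, at 2.77, the same arrays as for Gclc.

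**Figure D4:**
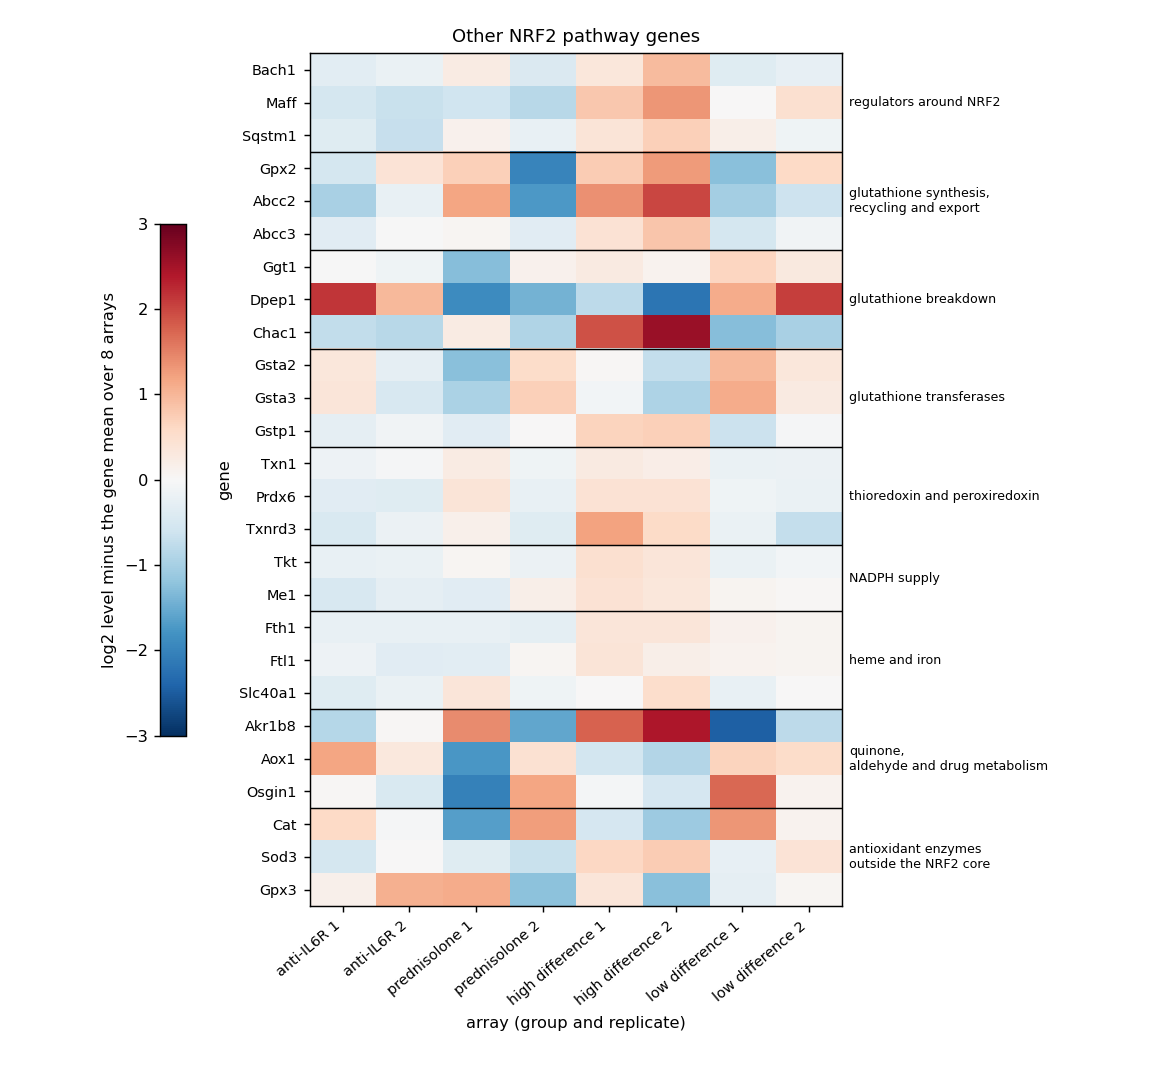
Log2 level of 26 other NRF2 pathway genes (rows, up to 3 per role) on each of the 8 arrays (columns, by group and replicate), shown as the difference from the gene's mean over the 8 arrays (colour scale, log2 units, -3 to 3). Gstp1, Chac1 and Akr1b8 are highest on the high-difference arrays, and Gsta2, Ggt1, Osgin1 and Cat are lowest on the first prednisolone array.

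As a description, the genes whose levels over the 8 arrays were most like those of the members were taken from 10289 named genes that were well above background on all arrays. For Nqo1 these were Ankzf1, Gstp1 and Atad1, with Pearson r of 0.966, 0.966 and 0.961. For Srxn1 they were Ankrd9, Ndufaf4 and Dkc1 (r = 0.988, 0.984 and 0.981), and for Gclc they were Selenbp1, Ggt1 and Scfd2 (r = 0.988, 0.985 and 0.982). The 8 arrays form 4 groups on 2 slides and share these sources of variation. Among the members, Nqo1 and Srxn1 had r = 0.96, Gclc and Gclm r = 0.92, and Nqo1 and Gclc r = 0.03. The set was chosen by the high minus low differences of Nqo1 and Srxn1, so nothing is read from their r. Hmox1 had r = 0.49 with Nqo1, -0.75 with Gclc and -0.82 with Keap1, the lowest of all pairs.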

How the data were processed

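Cy3-labelled RNA of 8 grafts was hybridised to 1-colour Agilent arrays, 1 graft per array, per the labels' protocols. Per the file headers, the deposited intensity of each spot came from Agilent Feature Extraction 9.5.1.1, after spatial and multiplicative detrending, with its separate background correction switched off. The deposited value table of the authors holds the same intensity times 1 factor per array, and the basis of that factor was not stated. Per-sample columns left unmapped numbered 0.

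Control spots and outlier flags were left out, log2 signals of replicate spots were averaged, and values were set relative to the 75th percentile of their array. Of 41012 probes, 765 lacked an unflagged spot on some array and 11562 were not well above background on both arrays of any group. This left 28685 probes of 24461 genes, and the probe with the highest mean was used for each gene. Names were updated through RefSeq genes of GRCr8, and the only coordinates given are those of the RefSeq windows.

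All arrays entered 1 limma 3.58.1 fit in R 4.3.3 (lmFit, contrasts.fit, eBayes), with 4 residual and 2.37 prior degrees of freedom and Benjamini-Hochberg adjustment over all genes at 0.05. Precision is limited by there being 2 arrays per group. Group means carry an SD, and differences a moderated standard error that pools the spread of all 4 groups. The method was tested on simulated data. Replicate numbers were not used to pair the grafts in the main fit, as their correlations were not all above 0.1.

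The members and the lists of pathway and marker genes were chosen with earlier results of these data known. Pathway examples are the 3 genes per list with the widest range of group means among those detected above background on every array (1 of them is not reported here), and the 3 nearest genes by Pearson r were found for each member and are given for 3 of the members. Other genes named are list members chosen after their values were seen. Alternatives were normexp background correction with an offset of 50, quantile normalization, other filters, the authors' table, a trended prior, means over probes, fits of the compared arrays, a replicate block and leaving out each array.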

Additional observations from a re-analysis of the deposited data

How the results depend on the processing

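In each of the 6 comparisons 0 genes were called, and 0 again with normexp, other filters, a trended prior, means over probes or the compared arrays alone. With quantile normalization limma called 3 genes in high minus low, 7 in anti-IL6R minus high, 4 in prednisolone minus high, 2 in anti-IL6R minus prednisolone and 4 in anti-IL6R minus low. Values of the authors' deposited file gave 1 gene in high minus low and 1 in anti-IL6R minus high. Leaving out 1 array at a time gave 0 to 39 genes in high minus low (39 without the first high-difference array, 28 without either prednisolone array) and 0 to 169 in anti-IL6R minus high (51 and 169 without those arrays). It gave 0 to 224 in prednisolone minus high (36 without the first high-difference array), 0 to 130 in anti-IL6R minus prednisolone, 0 to 8 in anti-IL6R minus low and 0 to 151 in prednisolone minus low. The highest of these came without the first prednisolone array, except that leaving out either gave the 8. A prednisolone group of 1 array adds nothing to the pooled spread, and its pair had the widest median SD of the groups, 0.31. The cause of these counts was not tested. A replicate block also gave 0 genes in every comparison. Same-numbered arrays correlated in their deviations at -0.35 to 0.37, which with 2 arrays per group cannot settle whether the numbers pair the grafts. The slide was not fitted as a block. Each group lay wholly on 1 slide, so a slide block cannot be told apart from treated against untreated grafts.

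No member was called in any of 680 alternative values, of which 654 kept their direction, and the 26 others turned. Nqo1, Srxn1 and Txnrd1 kept theirs in every alternative against high-difference grafts. Normexp turned Nfe2l2 to 0.038 in anti-IL6R minus high and 0.15 in prednisolone minus low, and Gsta2 to 0.076 in prednisolone minus high. Quantile normalization turned Nfe2l2 to 0.18, Ggt1 to 0.15 and Ftl1 to 0.042 in anti-IL6R minus high, Gsta2 to 0.20, Txn1 to 0.089 and Ftl1 to 0.058 in prednisolone minus high, Nfe2l2 to 0.011 in prednisolone minus low, and Ftl1 to -0.061 in high minus low. The authors' values turned Gsta2 to 0.00051 in prednisolone minus high, Txnrd1 to -0.015 in anti-IL6R minus low and Nfe2l2 to 0.0028 in prednisolone minus low, and the mean over probes put Txnrd1 at -0.072 in anti-IL6R minus low. Leaving out 1 array turned further differences, given as ranges. In anti-IL6R minus high these were Nfe2l2 at -0.027 to 0.025, Keap1 at -0.060 to 0.22, Osgin1 at -0.16 to 0.32. In prednisolone minus high these were Keap1 at -0.25 to 0.073, Dpep1 at -0.86 to 0.55, Gsta2 at -0.91 to 0.90, Osgin1 at -1.75 to 1.48, Gsta3 at -0.45 to 1.21, Slc40a1 at -0.40 to 0.091, Aox1 at -1.05 to 1.17, Gpx3 at -0.79 to 1.54, Gclc at -3.43 to 0.078, Hmox1 at -2.20 to 1.03, Txn1 at -0.35 to 0.022, Cat at -0.87 to 2.05. In anti-IL6R minus prednisolone these were Srxn1 at -0.27 to 0.091, Nqo1 at -0.061 to 0.52, Hmox1 at -1.97 to 1.26, Gclc at -0.24 to 3.26, Gclm at -0.47 to 1.42, Txnrd1 at -0.76 to 0.20. In anti-IL6R minus low these were Txnrd1 at -0.013 to 0.057, Keap1 at -0.26 to 0.013. In prednisolone minus low these were Hmox1 at -0.17 to 3.06, Txnrd1 at -0.18 to 0.78, Nfe2l2 at -0.20 to 0.13. Without the first prednisolone array Chac1 was also called in prednisolone minus high, at -3.16 (limma adjusted p = 0.0241), with the lone prednisolone array assumed to vary like the other groups.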
